A study of Caenorhabditis elegans with 6 samples.

Results

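The his genes of Caenorhabditis elegans, which encode the linker histone H1 and the core histones H2A, H2B, H3 and H4, were followed through poly(A)-selected RNA of whole worms. A gene was a member if its symbol in the deposited table was his followed by a hyphen and a digit. This gave 70 of 25212 genes, and 61 of them reached the mean of 1 FPKM (fragments per kilobase of transcript, scaled to library depth) required for a test. By histone class they were 1 H1 gene, 15 H2A, 16 H2B, 20 H3 and 16 H4 genes, and 2 genes (his-39 and his-73) had no class. Histone genes outside this naming scheme (htz-1, the hil genes, hcp-3 and cpar-1) were not members and were followed as a list.

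DNA in the nucleus is wound around an octamer of H2A, H2B, H3 and H4, and H1 binds the linker between octamers. Most core histone genes of animals are active during DNA replication, and their mRNAs end in a stem-loop, bound by the stem-loop binding protein, in place of a poly(A) tail, so selection on oligo(dT) recovers them poorly. Replacement variants such as H3.3 are also made outside replication, from genes with introns and polyadenylated mRNAs. In C. elegans, cdl-1 encodes the stem-loop binding protein, and the Argonaute CSR-1 has been tied to the maturation of histone mRNAs.

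All 6 libraries came from whole animals of N2, the wild-type reference strain, with 3 libraries from animals given 100 µM aspartame (ASP) and 3 from controls (Control), each group numbered 1 to 3. Aspartame is a dipeptide sweetener. The study concerns innate immunity towards Pseudomonas aeruginosa. Exposure of the sequenced worms to the bacterium, their age and the culture behind each library are not given by the labels. The p-values therefore measure only how far these libraries spread, and that spread may be technical. Total counts ran from 53558562 to 63581942 per library, and each of the marker genes listed for 8 tissues and processes was above 0 in every library. Ribosomal RNA genes, whose RNA has no poly(A) tail, took 5.10%, 5.74% and 7.19% of the counts in the ASP libraries and 3.24%, 5.81% and 5.26% in the Control libraries, in the order of their numbers. In RNA from whole animals, fewer cells of a type and less RNA per cell cannot be told apart.

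A few genes held most of the histone signal. Summed over the 70 members, the level was 945, 999 and 1037 FPKM in ASP 1, 2 and 3, and 930, 984 and 1050 FPKM in Control 1, 2 and 3, which is 0.126% to 0.145% of all FPKM in a library. The mean over the 6 libraries was at least 20 FPKM for 9 members, and the next gene, the H2B gene his-66, stood at 11.3 FPKM. For comparison, the median of the 13552 mRNA genes at or above a mean of 1 FPKM was 13.4 FPKM. At the other end, 9 members were below 1 FPKM, and 6 were listed at 0 in at least 1 library. Values of single genes are uncertain, since the core histone genes of a class are near-identical copies that can share reads. The H2B genes his-29 and his-34 had identical FPKM in all 6 libraries.

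**Figure D1:**
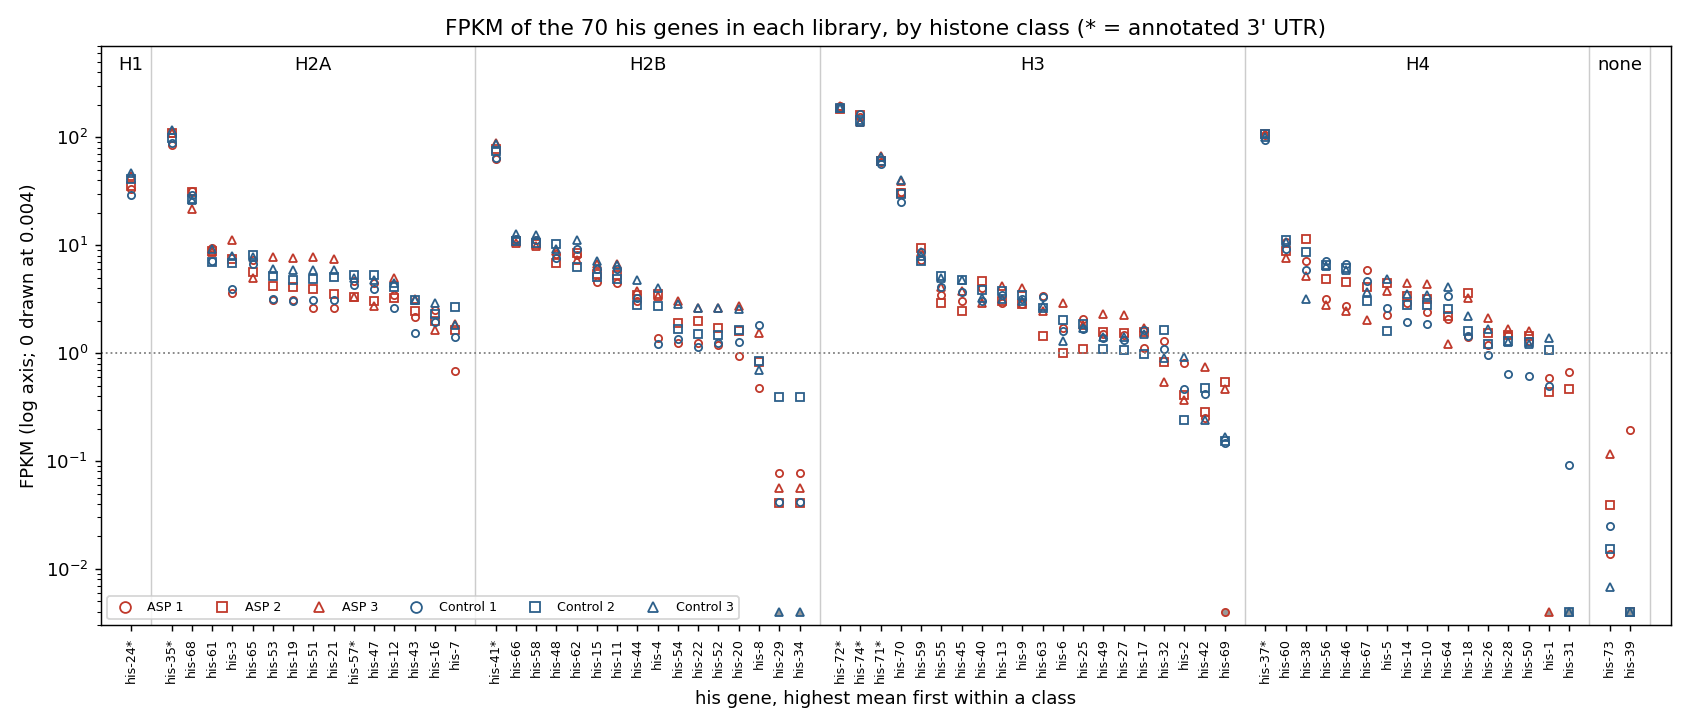
FPKM (log axis) of each of the 70 his genes in the 6 libraries, grouped by histone class and ordered by mean, with an asterisk for a gene with an annotated 3′ UTR, the dotted line at 1 FPKM and values of 0 drawn at the bottom as filled symbols. In each core class 1 to 4 genes have a mean above 20 FPKM, and the means of the rest lie at 11.3 FPKM or below.

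The leading genes were mostly those annotated with a structure unlike that of the bulk of the family. Only 8 members (his-24, his-35, his-37, his-41, his-57, his-71, his-72 and his-74) had a 3′ UTR annotated, and the same 8 had more than 1 exon. Their mean levels ran from 4.31 to 188 FPKM with a median of 88.4 FPKM. The other 62 members, which have no annotated 3′ UTR, ran from 0.0320 to 32.5 FPKM with a median of 3.09 FPKM. No 3′ UTR was thus annotated for 88.6% of the members, against 15.9% of the 19985 protein-coding genes of the annotation. The 8 genes took 71.0% to 73.7% of the histone FPKM in the 6 libraries. The match was not complete, because 2 of the 9 highest members, the H2A gene his-68 and the H3.3-like gene his-70, have no 3′ UTR annotated, and his-57, an H2A gene with one, had a mean of 4.31 FPKM.

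Among the H3 genes, the H3.3 and H3.3-like genes made up nearly all of the signal. The 5 genes so described in the deposited table (his-69, his-70, his-71, his-72 and his-74) held 91.1% to 92.5% of the H3 FPKM, and the 15 others shared the remainder. The H3.3 gene his-72 (III, 12367475 to 12369050) was the highest histone gene, at 194, 181 and 194 FPKM in ASP 1, 2 and 3 and 187, 185 and 187 FPKM in Control 1, 2 and 3. Its level varied little, and it took 38.8% to 40.9% of the H3 FPKM. The gene his-74 (V, 12659704 to 12660330) had 153, 161 and 137 FPKM in ASP 1, 2 and 3 and 164, 144 and 138 FPKM in Control 1, 2 and 3. The H3.3 gene his-71 (X, 7981382 to 7982070) had 59.1, 59.6 and 67.5 FPKM in ASP and 56.3, 60.5 and 65.3 FPKM in Control, in the order of the numbers. In each group its library numbered 3 was the highest. The neighbours his-69 and his-70 on chromosome III (4058360 to 4060119) differed in level. his-70 had 31.2, 30.2 and 39.0 FPKM in ASP and 24.9, 29.9 and 40.1 FPKM in Control, while his-69, the lowest H3 gene, was listed at 0 in ASP 1 and had 0.147 to 0.541 FPKM in the other libraries.

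In H2A, H2B and H4 a single gene led, and the 3 leaders lie side by side on chromosome V (9544659 to 9547607). The H2A gene his-35 had 84.3, 109 and 110 FPKM in ASP 1, 2 and 3 and 88.0, 98.2 and 117 FPKM in Control 1, 2 and 3, or 50.8% to 56.5% of the H2A FPKM. The H2B gene his-41 had 63.2, 77.6 and 88.6 FPKM in ASP and 63.9, 75.2 and 85.6 FPKM in Control, or 50.4% to 56.1% of the H2B FPKM. In both genes the libraries numbered 1 were the lowest of their group. The H4 gene his-37 had 105, 107 and 106 FPKM in ASP and 93.2, 106 and 101 FPKM in Control, or 65.3% to 71.4% of the H4 FPKM. The only H1 gene among the members, his-24 (X, 14490094 to 14491119), had 32.8, 35.6 and 43.9 FPKM in ASP and 28.9, 40.5 and 46.6 FPKM in Control. The lowest members of the other classes were his-7 for H2A (mean 1.67 FPKM), his-29 and his-34 for H2B (mean 0.102 FPKM each, listed at 0 in Control 3) and his-31 for H4 (mean 0.205 FPKM, listed at 0 in 3 of the 6 libraries).

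The family is laid out in clusters of divergent pairs, and partners in a pair did not always have the same level. Members no more than 20000 bases apart formed 10 clusters of more than 2 genes, which hold 59 of the 70 members. In 29 pairs, holding 58 members, neighbouring genes pointed away from each other with starts within 1000 bases. There were 14 pairs of H2A with H2B, with a median distance of 292 bases between the starts, and 14 pairs of H3 with H4, with a median of 255 bases. Mean FPKM differed by a median of 1.24-fold between the partners of H3-H4 pairs and by a median of 2.28-fold between those of H2A-H2B pairs. Among the H3-H4 pairs the widest difference, 5.13-fold, was between his-31 (0.205 FPKM) and his-32 (1.05 FPKM). Among the H2A-H2B pairs it was 2.65-fold, between his-20 and his-19. The remaining pair joins an H2A gene to an H4 gene, with his-68 at 27.8 FPKM and his-67 at 3.92 FPKM, a 7.09-fold difference.

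Aspartame came with no called change in any histone gene. The comparison of ASP with Control is the one the study was designed around, and edgeR's quasi-likelihood test called 0 of the 61 histone genes tested and 0% of all 13790 genes (Benjamini-Hochberg adjusted p under 0.05). At an unadjusted p under 0.05 there were 3 histone genes in edgeR, against 62 of all 13790 genes. In DESeq2, which also called 0, there were 2 histone genes, against 73 of all genes. The median log2 difference (ASP over Control) was 0.01 over the 61 histone genes, with 31 above 0 and 30 below, against 0.00 over all genes. Summed H1 FPKM was 37.4 ± 5.79 in ASP and 38.7 ± 8.99 in Control (mean ± SD, n = 3), summed H2A was 188 ± 19.96 and 189 ± 25.8, and summed H2B was 139 ± 18.6 and 143 ± 19.7. Summed H3 was 474 ± 7.26 FPKM in ASP and 467 ± 5.99 in Control, and summed H4 was 154 ± 7.33 and 151 ± 8.94. In every class the libraries of the groups overlapped.

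The 3 histone genes with the smallest p in this comparison were H4 genes of chromosome IV, all with lower values in ASP, and none passed. The gene his-56 (11338522 to 11338833) had 3.16, 4.82 and 2.76 FPKM in ASP 1, 2 and 3 and 7.11, 6.59 and 6.43 FPKM in Control 1, 2 and 3. Every ASP library was below every Control library, and the log2 difference was −0.92 (SE 0.28, edgeR adjusted p 0.9999). The gene his-46 (11326018 to 11326329) had 2.76, 4.55 and 2.47 FPKM in ASP and 6.66, 6.15 and 5.89 FPKM in Control, with a log2 difference of −0.95 (SE 0.30). The gene his-64 (11407116 to 11407427) had 2.08, 2.19 and 1.21 FPKM in ASP and 3.39, 2.56 and 4.06 FPKM in Control, with a log2 difference of −0.89 (SE 0.35). Its groups did not overlap either. With the replicate number as a block the log2 differences of his-56, his-46 and his-64 were −0.95, −0.99 and −0.88, and the edgeR adjusted p was 0.997 for each. The values of his-46 and his-56 lie so close to each other in every library that they cannot be read as separate observations.

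**Figure D2:**
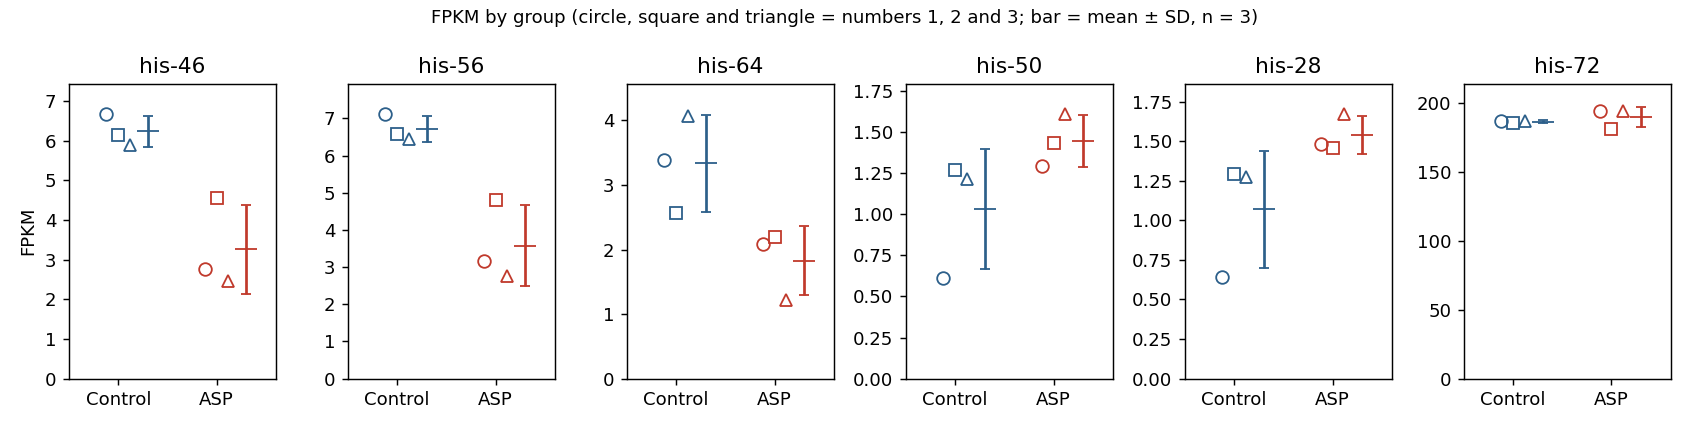
FPKM of 6 his genes in the 3 Control and 3 ASP libraries (circle, square and triangle for numbers 1, 2 and 3), with the mean and SD of each group. ASP lies below Control without overlap in his-46, his-56 and his-64 and above it in his-50 and his-28, while the 2 groups overlap in his-72, and none of the 6 passed the test.

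Groups that did not overlap were found for 8 of the 61 tested histone genes, against 3.39% of all genes tested. The 4 with lower values in ASP (his-46, his-55, his-56 and his-64, background 1.10%) lie on chromosome IV, and the 4 with higher values (his-27, his-28, his-49 and his-50, background 2.28%) are H3 and H4 copies on chromosome V. Some of these copies had near-equal values (his-46 and his-56, his-27 and his-49, his-28 and his-50), so the counts hold fewer separate observations than genes. In the chromosome IV cluster from 11324056 to 11341703, singled out after its values were seen, all 8 genes had a log2 difference below 0, from −0.95 to −0.16. Their sum was 41.0, 38.1 and 37.7 FPKM in ASP 1, 2 and 3 and 48.7, 53.9 and 53.3 FPKM in Control 1, 2 and 3. The ratio of ASP to Control for this sum was 0.842 within number 1, 0.707 within number 2 and 0.707 within number 3. The classes of the cluster differed, but their ranking changed with the number. Within number 1 the ratio was 0.429 for H4, 0.824 for H3, 1.04 for H2B and 1.10 for H2A. Within number 2 it was 0.735 for H4, 0.538 for H3, 0.826 for H2B and 0.602 for H2A. Within number 3 it was 0.424 for H4, 0.812 for H3, 0.864 for H2B and 0.616 for H2A. The nearest cluster (11400415 to 11407427) had 4 of 4 genes below 0. No gene in either cluster passed the test.

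The libraries also differed by number, and here some histone genes changed. What a number stands for is not given by the labels, and comparisons between numbers rest on 2 libraries each, 1 from ASP and 1 from Control. Number 2 against number 1 called 0 of the 61 histone genes, against 3.84% of all genes (2.70% higher and 1.14% lower). At an unadjusted p under 0.05 there were 6 histone genes in edgeR, against 2478 of all 13790 genes. In DESeq2, which also called 0 histone genes, there were 5, against 2063 of all genes. The smallest p belonged to his-4 (H2B, log2 1.25, SE 0.37, edgeR adjusted p 0.124), his-3 (H2A, log2 0.92, SE 0.28, adjusted p 0.133) and his-41 (H2B, log2 0.27, SE 0.09, adjusted p 0.158), none of which passed. The median over the histone genes was 0.08, and it was 0.24 without ASP 1, 0.15 without Control 1, 0.14 without ASP 2 and 0.22 without Control 2. Without ASP 3, edgeR called 2 of them (his-4 and his-24), and without Control 3 it called 3 (his-4, his-24 and his-41).

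Number 3 against number 2 called 2 of the 61 histone genes, 1 in each direction, against 24.3% of all genes (12.1% higher and 12.2% lower). The H4 gene his-38 (X, 7309564 to 7309875) had 11.4 and 8.65 FPKM in ASP 2 and Control 2 and 5.21 and 3.15 FPKM in ASP 3 and Control 3, a fall of log2 −1.19 (SE 0.29, edgeR adjusted p 0.0199). Its level in the libraries numbered 1 lay between, at 7.18 FPKM in ASP and 5.93 FPKM in Control. The H3.3-like gene his-70 rose by log2 0.50 (SE 0.15, edgeR adjusted p 0.0459). The next gene, his-41, did not pass (log2 0.28, SE 0.09, edgeR adjusted p 0.0507). Of the 61 genes, 49 were above 0 and 12 below, with a median of 0.28 against 0.00 over all genes. Both calls were lost without ASP 2, without Control 2 and without Control 3.

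In number 3 against number 1, a comparison added after the values were seen, edgeR called 15 of the 61 histone genes, all higher in number 3, and DESeq2 called 11, all of them among the 15. The share called was 24.6%, against 37.5% of all genes, and the share that rose was 24.6%, against 18.3% of all genes. The median log2 difference was 0.42 over the histone genes, with 47 above 0 and 14 below, against −0.01 over all genes. This comparison uses the same libraries as the other contrasts between numbers and adds no separate evidence to them. In FPKM summed over all members, number 3 exceeded number 1 by a ratio of 1.097 in ASP and 1.13 in Control.

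Most of the genes called were of H2A and H2B, and the class sums of H1, H2A and H2B differed more between numbers than those of H3 and H4. Summed H2A was 166, 194 and 205 FPKM in ASP 1, 2 and 3 and 163, 189 and 214 FPKM in Control 1, 2 and 3. Summed H2B was 121, 140 and 158 FPKM in ASP and 127, 136 and 165 FPKM in Control. In both classes the libraries numbered 3 were the highest of each group and those numbered 1 the lowest. Summed H3 FPKM, by contrast, was 474, 467 and 482 in the ASP libraries and 471, 460 and 470 in the Control libraries. Summed H4 was 151, 162 and 149 FPKM in ASP and 141, 158 and 154 FPKM in Control. The ratio of number 3 to number 1 in ASP and Control was 1.23 and 1.32 for H2A, 1.31 and 1.30 for H2B, 1.34 and 1.61 for H1, 1.02 and 0.998 for H3, and 0.983 and 1.09 for H4. By gene, 12 of the 29 tested H2A and H2B genes rose, against 2 of the 31 tested H3 and H4 genes, his-70 and his-71. Of all genes tested, 18.3% rose. Of the 12, 10 lie in 3 clusters on chromosome V and include near-equal copies, which are not separate observations. The difference between the H2A and H2B genes and the H3 and H4 genes was not tested. The sums of H3 and H4 are made up mostly of his-72, his-74 and his-37. For the 17 H3 genes with no annotated 3′ UTR the ratio was 1.205 in ASP and 1.24 in Control, and for the 15 such H2B genes it was 1.20 and 1.26. The median log2 difference was 0.72 for H2A, 0.52 for H2B, 0.31 for H3 (13 of 17 tested genes above 0) and 0.39 for H4 (8 of 14).

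**Figure D3:**
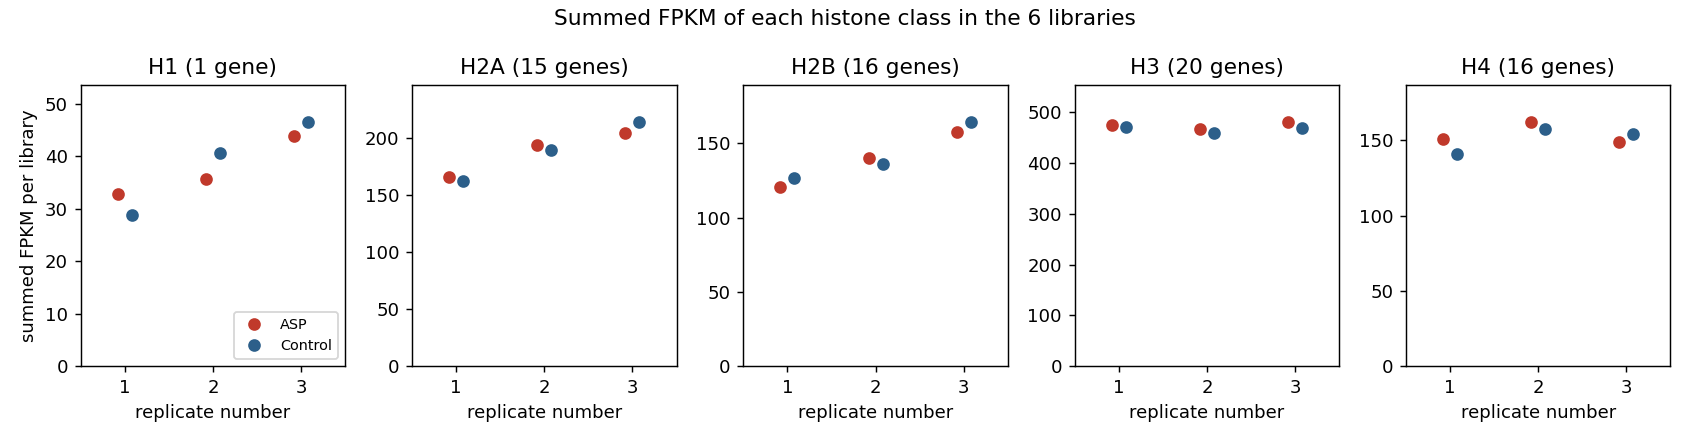
Summed FPKM of each histone class in the libraries numbered 1, 2 and 3 of ASP and Control, 1 point per library, with each axis starting at 0. H1, H2A and H2B are highest in the libraries numbered 3 in both groups, and the H3 sum stays between 460 and 482 FPKM.

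The 5 histone genes with the smallest p were of H1, H2A and H2B. By edgeR, the leading H2B gene his-41 rose by log2 0.55 (SE 0.09, adjusted p 0.00193) and the H1 gene his-24 by 0.65 (SE 0.11, adjusted p 0.00230). The leading H2A gene his-35 rose by 0.50 (SE 0.10, adjusted p 0.00661). In all 3 genes both libraries numbered 3 were above both libraries numbered 1. Larger changes were seen in a divergent pair on chromosome V. The H2A gene his-3 (16040808 to 16041191) had 3.62, 7.50 and 11.2 FPKM in ASP 1, 2 and 3 and 3.95, 6.85 and 7.96 FPKM in Control 1, 2 and 3, a rise of log2 1.41 (SE 0.28, edgeR adjusted p 0.00550). Its partner, the H2B gene his-4 (16040144 to 16040515), had 1.37, 3.51 and 3.41 FPKM in ASP and 1.23, 2.72 and 4.01 FPKM in Control, a rise of log2 1.59 (SE 0.37, edgeR adjusted p 0.0113). The pair was lowest in the libraries numbered 1 of both groups. Among the leading genes of the other classes, his-72 (log2 0.10, SE 0.08, with the sign turned in limma on FPKM), his-74 (−0.10, SE 0.10) and his-37 (0.16, SE 0.09) did not pass, while his-71 rose by 0.30 (SE 0.09, edgeR adjusted p 0.0285) and his-70 by 0.60 (SE 0.15, edgeR adjusted p 0.0155).

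**Figure D4:**
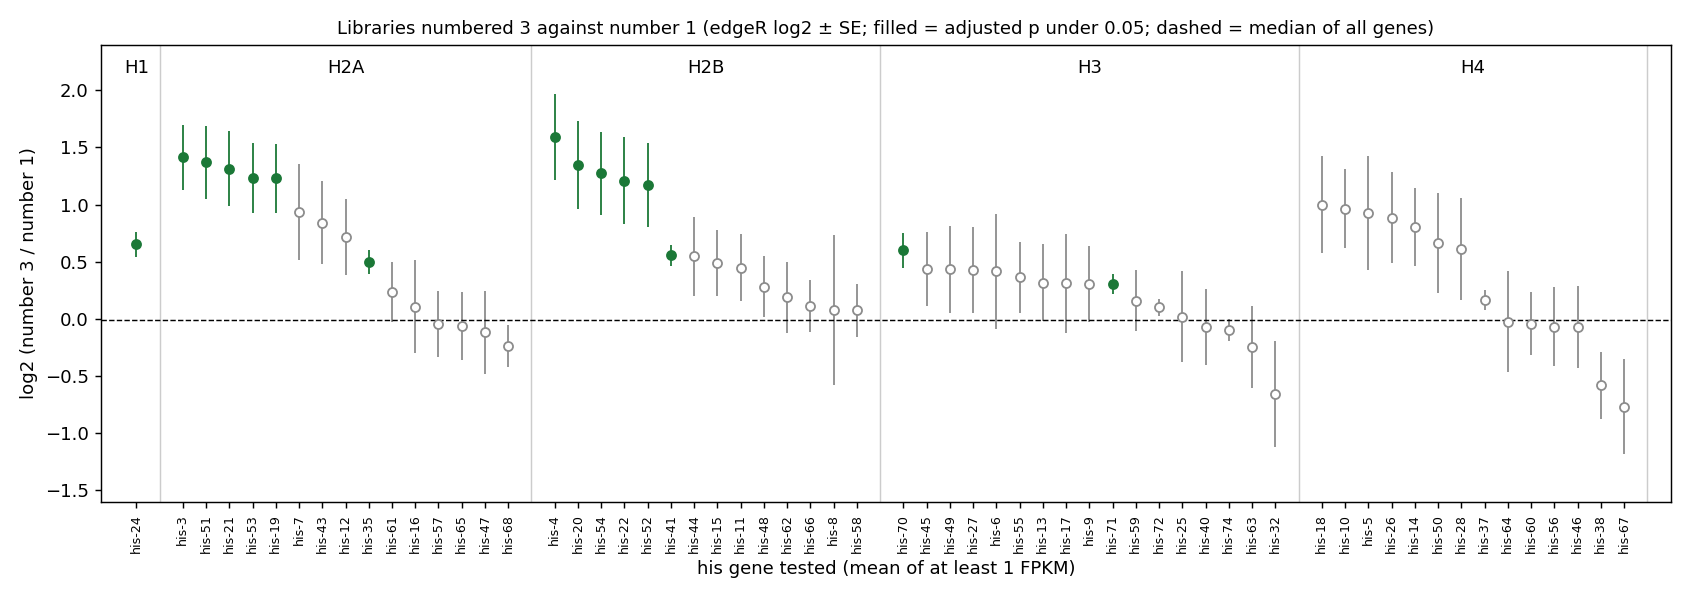
Log2 difference of the libraries numbered 3 over those numbered 1 for each of the 61 tested his genes by class, with its SE, filled where the edgeR adjusted p is under 0.05. Of the 15 filled points, 12 are H2A and H2B genes, 2 are the H3 genes his-70 and his-71, and 1 is the H1 gene his-24.

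The H2A and H2B genes that rose, apart from his-35 and his-41, all lie in 3 clusters on chromosome V (8847393 to 8854053, 8889488 to 8898539 and 16040144 to 16042831), which were singled out after their values were seen. All 10 H2A and H2B genes of these clusters rose in edgeR, by log2 1.17 to 1.59. DESeq2 did not call 4 of them, the H2B genes his-20, his-22, his-52 and his-54, and without ASP 1 edgeR called only his-3 and his-4 of the 10. Without Control 1 it called his-3, his-21 and his-51 of them. None of the 6 tested H3 and H4 genes in the same clusters passed, though all 6 were above 0, with log2 values from 0.31 to 0.999. Counts of these 6 genes ran from 13 to 75 per library. Summed over the 3 clusters, the H2A and H2B genes had 21.01, 33.9 and 56.2 FPKM in ASP 1, 2 and 3 and 22.6, 35.7 and 46.3 FPKM in Control 1, 2 and 3. The 8 H3 and H4 genes there had 9.70, 11.9 and 13.2 FPKM in ASP and 7.97, 8.62 and 11.3 FPKM in Control. For H2A and H2B the ratio of number 3 to number 1 was 2.67 in ASP and 2.05 in Control, and for H3 and H4 it was 1.36 and 1.42. Outside these clusters and that of his-35, 0 of 17 tested H2A and H2B genes passed (log2 −0.23 to 0.94), and all 19 H2A and H2B genes there summed to a ratio of 0.913 in ASP and 1.13 in Control. The 4 H2A genes of the first 2 clusters had means of 4.63 to 4.88 FPKM and the 4 H2B genes means of 1.79 to 1.996 FPKM, so these near-equal copies are not separate observations. Counts of the 10 H2A and H2B genes of the 3 clusters ran from 22 to 273 per library. Leaving out 1 library cut the calls among all 61 histone genes to 6 without ASP 1, 6 without Control 1 and 9 without ASP 3, of which 6, 6 and 8 were among the 15. Without Control 3, 11 were called, 10 of them among the 15 and 1 lower, the H4 gene his-67. Without any filter on FPKM 3 were called, namely his-3, his-24 and his-41.

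Most of the DNA replication genes and of the histone chaperones fell between the same libraries. Over all genes, 18.3% rose and 19.1% fell in number 3 against number 1. Of 33 tested DNA replication genes, 31 fell and none rose, with a median log2 of −0.51 against −0.01 over all genes. Examples were the replicative helicase subunit mcm-7 (log2 −0.75, SE 0.09), the sliding clamp pcn-1 (−0.54, SE 0.08) and the ribonucleotide reductase subunit rnr-2 (−0.53, SE 0.09). Of 14 histone chaperones, 9 fell and none rose, with a median of −0.32, among them the chromatin assembly factor subunit chaf-1 (−0.59, SE 0.10) and nasp-2 (−1.18, SE 0.09). Of the 8 genes of histone mRNA 3′ end formation and the CSR-1 pathway, 1 fell, the stem-loop binding protein gene cdl-1 (−0.47, SE 0.08), and csr-1 itself did not pass (0.21, SE 0.09). Of the 10 tested histone genes outside the his names, 2 rose, the H1-like genes hil-3 (1.44, SE 0.11) and hil-2 (0.81, SE 0.09). In that list 4 fell, namely hil-1 (−1.81, SE 0.31), the H3 variant genes cpar-1 (−0.71, SE 0.12) and hcp-3 (−0.34, SE 0.11), and the H2A.Z gene htz-1 (−0.24, SE 0.08). In ASP against Control, 0 genes of these 4 lists passed, with medians from −0.09 to −0.02.

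**Figure D5:**
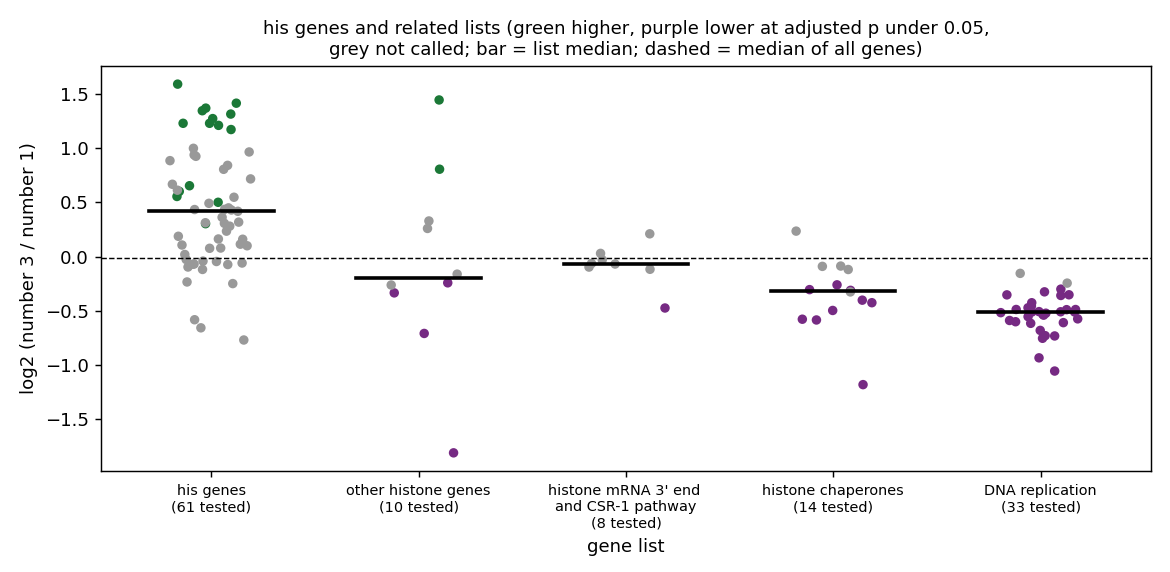
Log2 difference of the libraries numbered 3 over those numbered 1 for the his genes and 4 related lists, 1 point per tested gene, with the list median as a bar and the median of all genes dashed. The his genes have a median of 0.42 and the DNA replication genes a median of −0.51.

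Markers of some tissues and processes differed between the same libraries. Beside the 18.3% of all genes that rose and the 19.1% that fell in number 3 against number 1, 5 of 5 molting genes and 4 of 4 epidermal collagen genes rose (median log2 2.50 and 2.43), and 6 of 6 oocyte and eggshell genes fell (−1.27). Of 4 germ line genes 1 rose and 2 fell (−0.12), of 4 sperm genes 1 rose (0.12), of 5 intestine genes 1 rose and 3 fell (−0.48), of 4 muscle genes 1 rose (0.21), and of 4 neuronal genes none passed (−0.03). The summed FPKM of the epidermal genes was 172 and 218 in ASP 1 and Control 1 and 1043 and 958 in ASP 3 and Control 3. That of the oocyte and eggshell genes was 971 and 1053 in ASP 1 and Control 1 and 391 and 492 in ASP 3 and Control 3. RNAs with no poly(A) tail were measured as well, and 4 of 5 tested rRNA genes rose (median 0.67), while of 24 tested snoRNA genes 3 rose and 1 fell (0.37) and neither of the 2 tested snRNA genes passed (−0.62). The part of these differences in the change of the histone genes was not tested.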

How the data were processed

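Whole-animal RNA was selected on oligo(dT) beads, per the labels' protocols. Per the file headers, the deposited table pairs FPKM with estimated counts for every library. The counts were already whole numbers, so rounding left them as they were. CASAVA 1.4 and the mouse builds mm10 and mm9 appear in the submitters' processing notes, whereas the table's chromosome accessions belong to the worm build WBcel235, in which coordinates are printed. Not given in the sources used here are the aligner, the counting method, the handling of reads shared by copies and whether strand was used, so no counting intervals were derived.

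The 13790 genes whose mean reached 1 FPKM were tested with edgeR 4.0.16 in R 4.3.3 (TMM factors, quasi-likelihood test, Benjamini-Hochberg adjustment over these genes, threshold 0.05). ASP against Control used the group alone, and numbers were compared with group and number in the design. The test returns no SE, so each SE printed is the absolute log2 difference divided by the square root of the F statistic. Number 3 against number 1 was added after the values were seen. Libraries of the same number deviated together from their group means (correlation over genes 0.811, 0.524 and 0.822 for numbers 1, 2 and 3, and 0.500, −0.0954 and 0.486 over the 61 histone genes alone), so the numbers were read as pairing the libraries, and the fit with the number as a block was an alternative. Other alternatives were DESeq2 1.42.0, limma 3.58.1 on log2(FPKM + 1) and log2(FPKM + 0.1), median-of-ratios factors, removal of rRNA genes, no filter or a mean of at least 5 FPKM, no group term, and leaving out 1 library at a time. The tests, apart from number 3 against number 1, were also run on simulated counts. For ASP against Control these counts held no differences between numbers, unlike the data, so the check does not cover that feature. Sums and facts were computed in Python 3.11.15 with pandas 2.3.3 and numpy 2.4.6.

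The members, the lists and the tests were chosen with earlier results of these data known. Histone classes came from the descriptions in the table, which name no class for any of the 16 H4 genes. The gene his-37 was taken as H4 from its KEGG entry. The other 15 share 1 description and a span of 312 bases. They were grouped by these features, with H4 as their class in worm gene nomenclature. All 70 members matched the Ensembl annotation of WBcel235 by coordinates. RefSeq holds 72 his genes, and his-30 and his-33 were not analysed here. The text names the highest and lowest gene of each class, the genes described as H3.3 or H3.3-like, and in each comparison up to 5 called genes per direction or, with fewer than 5 called, the 3 with the smallest p. The H3.3 genes stand in for members with an unusual protein, since no protein sequences were used here. Other genes appear in counts or as examples from the lists.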

Additional observations from a re-analysis of the deposited data

How the results depend on the processing

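In ASP against Control, 0 genes and 0 histone genes were called under each of 14 alternatives, and leaving out 1 library moved the histone median log2 between −0.20 and 0.12. The replicate block changed no call. Under it edgeR called 0 genes, while 369 had an unadjusted p under 0.05, and the histone median was −0.01. Number 2 against number 1 called 530 genes, and 875 with DESeq2, 9 with no filter, 297 with limma on log2(FPKM + 1), 304 on log2(FPKM + 0.1) and 78 to 1546 with 1 library left out, where 0 to 3 histone genes were called in place of 0. Number 3 against number 2 called 3346 genes, 1195 with no filter and 1402 to 3612 with 1 library left out. Its 2 histone calls became 4 with median-of-ratios factors, 4 at a mean of at least 5 FPKM, 4 with no group term, 0 with no filter and 0 to 4 with 1 library left out. Number 3 against number 1 called 5167 genes, 3116 with no filter and 3253 to 5093 with 1 library left out. Its 15 histone calls became 3 with no filter, 6 at a mean of at least 5 FPKM (where 22 were tested) and 6 to 11 with 1 library left out. With no filter 25212 genes entered both the fit and the adjustment, and the cause of the lower counts was not tested. On FPKM with no further scaling (limma, log2(FPKM + 1)) the median of all genes in number 3 against number 1 was −0.10 (−0.11 with 0.1 added), with 1884 genes higher and 3323 lower in place of 2527 and 2640. There the histone median was 0.21, and 16 histone genes were higher, not including his-71, with 1 lower, his-38. Of the called genes and those with the smallest p given with values, none changed sign under the alternatives run, while his-72 in number 3 against number 1 (log2 0.10) was at −0.0007 in limma on either FPKM scale. Depth limits the single copies: the histone genes tested stand on a mean of at least 1 FPKM, and with 2 libraries per number the comparisons between numbers rest on little replication.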
